A study of Mus musculus with 12 samples.

Results

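The nuclear genes of the respiratory chain were examined in mouse embryonic fibroblasts (MEFs) that carried or lacked the retinoblastoma gene Rb1, with and without the platinum drug cisplatin. They were chosen by name, not by signal: a probe set of the array counted if the platform annotation gave it a single symbol beginning with Nduf, Uqcr, Atp5 or Cox4 to Cox8, or the symbol Sdha, Sdhb, Sdhc, Sdhd, Cyc1 or Cycs. This gave 160 of 22690 probe sets and 86 of 12393 genes. They comprise 34 genes of complex I, 5 complex I assembly factors whose names also begin with Nduf, 4 genes of complex II, 9 of complex III, 16 of complex IV, 17 of complex V and cytochrome c. Of these, 83 genes with 144 probe sets passed the filter on weak signal. Cox7a1, Cox7c and Cox8b did not.

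Primary MEFs were prepared from embryonic day 13.5 embryos and grown to passage 2 in DMEM with fetal calf serum. The 4 groups were Rb null cells treated with cisplatin at 16 µM for 24 h, wildtype cells given the same treatment, untreated Rb null cells, and untreated wildtype cells. RNA of each group was hybridized to 3 Affymetrix expression arrays, 12 in all, from 6 µg of total RNA each, and the values are signals per probe set. The labels name neither the strain, nor how the null allele was made, nor the number of embryos behind a culture. The series text speaks of 4 RNA samples hybridized 3 times each, so the spread between arrays, and every p-value below, may measure hybridization error only and leave out the spread between cultures.

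The respiratory chain passes electrons from NADH (complex I) and succinate (complex II) through ubiquinone, complex III and cytochrome c to oxygen at complex IV, and complex V, the ATP synthase, uses the proton gradient this builds. Most subunits are encoded in the nucleus, and a few in mitochondrial DNA. NRF1, the ETS-family factor GABP and YY1 are known regulators of the nuclear genes. The Rb protein binds E2F transcription factors and holds back the genes of the cell cycle, and cisplatin forms DNA adducts in the nucleus and in mitochondria.

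Promoter sequences are shown for the genes with the largest differences in complexes I and IV (Ndufs5, Ndufs4, Ndufb6 and Cox6b2) and for cytochrome c, whose promoter holds the NRF1 word. They run from 250 bases before to 50 bases after the transcription start, 5′ to 3′ on the gene's strand, from RefSeq on build GRCm38.p6. Capitals mark a match to any of the words searched on both strands: CGCATGCG for NRF1, CCGGAAG for ETS factors such as GABP, AAGATGGCG for YY1, and TTTCGCGC or TTTGGCGC for E2F. The windows lie at chr4:123718137-123718436 (minus strand) for Ndufs5, chr13:114388045-114388344 (minus strand) for Ndufs4, chr4:40279372-40279671 (minus strand) for Ndufb6, chr7:4753045-4753344 (minus strand) for Cox6b2 and chr6:50566520-50566819 (minus strand) for Cycs.
Ndufs5: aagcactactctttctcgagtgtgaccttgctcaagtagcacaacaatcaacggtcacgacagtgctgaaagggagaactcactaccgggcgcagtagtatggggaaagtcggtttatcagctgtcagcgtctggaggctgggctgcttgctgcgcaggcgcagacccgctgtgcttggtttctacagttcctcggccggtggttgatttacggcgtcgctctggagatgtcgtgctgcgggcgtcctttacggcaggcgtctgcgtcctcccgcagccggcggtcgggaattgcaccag
Ndufs4: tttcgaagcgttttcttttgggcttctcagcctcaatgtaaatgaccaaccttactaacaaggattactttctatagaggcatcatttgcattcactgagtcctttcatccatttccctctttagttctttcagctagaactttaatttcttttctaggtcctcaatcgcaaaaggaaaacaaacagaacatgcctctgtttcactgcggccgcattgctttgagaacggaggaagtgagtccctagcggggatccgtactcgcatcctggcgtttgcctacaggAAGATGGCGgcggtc
Ndufb6: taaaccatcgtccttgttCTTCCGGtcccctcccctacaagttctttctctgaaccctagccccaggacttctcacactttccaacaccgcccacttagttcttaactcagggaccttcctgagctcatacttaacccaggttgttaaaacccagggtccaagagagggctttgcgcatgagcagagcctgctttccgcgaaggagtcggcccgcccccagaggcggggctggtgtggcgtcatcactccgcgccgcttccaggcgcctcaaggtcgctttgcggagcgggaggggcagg
Cox6b2: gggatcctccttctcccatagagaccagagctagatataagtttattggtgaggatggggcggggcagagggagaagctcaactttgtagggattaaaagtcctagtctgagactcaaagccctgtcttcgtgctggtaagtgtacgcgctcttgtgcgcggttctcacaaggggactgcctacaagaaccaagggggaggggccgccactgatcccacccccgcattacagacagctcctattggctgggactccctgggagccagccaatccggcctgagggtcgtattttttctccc
Cycs: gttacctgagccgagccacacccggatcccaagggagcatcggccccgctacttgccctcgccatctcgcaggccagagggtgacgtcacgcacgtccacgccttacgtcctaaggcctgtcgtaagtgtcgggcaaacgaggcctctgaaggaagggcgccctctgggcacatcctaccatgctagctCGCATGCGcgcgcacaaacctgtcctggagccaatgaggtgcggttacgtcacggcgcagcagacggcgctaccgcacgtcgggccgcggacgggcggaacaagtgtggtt

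Ndufs4 held the YY1 word after its start, near the end of the window. Ndufb6 held the ETS word read on the other strand (CTTCCGG), and Cycs the NRF1 word, while the Ndufs5 and Cox6b2 windows held none of the words. Across the group, 71 of 86 genes had a RefSeq promoter, 76 promoters in all. The NRF1 word was in 11 of these (14.5%), against 4.08% of the 8402 promoters of tested genes and 1.87% of all 32851 promoters. The YY1 word was in 6 (7.89%, against 3.09% and 1.4%), and the ETS word in 18 (23.7%, against 18.2% and 8.86%). The E2F words were in 2 (2.63%, against 1.68% and 0.813%). Each word was counted by itself, so bases can belong to more than 1 match. The median GC content was 58.8% in these promoters, 61.3% in those of tested genes and 52.7% in all. A match describes the letters of a window, not binding.

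The arrays had been scaled alike, with trimmed means of 500.1 to 500.2, and arrays of a group correlated at 0.981 to 0.992, against 0.806 to 0.952 between groups. Rb1 signal was 74 to 102.5 in cisplatin-treated Rb null cells against 344.4 to 452.1 in treated wildtype cells, and 85.3 to 104.9 against 419.9 to 487.5 without treatment. Untreated wildtype arrays stood apart in sex-linked transcripts: Xist was 115.1 to 162.9 there, against 2150.9 to 3760.9 in the other groups, and Eif2s3y at least 469.7, against at most 17.8. Genotype without cisplatin, cisplatin in wildtype and the difference of responses use that group, and the sex-linked difference cannot be told apart from genotype or treatment in them. Genotype with cisplatin and cisplatin in Rb null cells do not use it. A fit without that group cannot change their log2 differences, only the estimate of the spread. It gave the same counts of calls in both (2 higher and 4 lower, and 6 higher and 3 lower). These counts do not test the sex-linked difference. The X-linked members are Ndufa1 and Ndufb11. All 14 fibroblast markers passed the filter and none was at 0. Their summed signal was 48750 to 49840 in treated Rb null cells, 64480 to 67220 in treated wildtype cells, 76490 to 78620 in untreated Rb null cells and 79330 to 82450 in untreated wildtype cells. The 14 macrophage markers also all passed, with sums of 6094 to 6334, 11770 to 12400, 8024 to 8325 and 6170 to 6508 in the same order of groups. Of 17 striated muscle markers 7 passed, with sums of 1328 to 1543, 1191 to 1407, 2590 to 2628 and 4318 to 4461. Of 7 epithelial markers 3 passed, with sums of 1388 to 1497, 1308 to 1512, 482.2 to 646.6 and 649.7 to 815.9, and of 7 neural markers 3 passed, with sums of 1844 to 2459, 1321 to 1661, 2210 to 2596 and 4098 to 4477. Of 6 endothelial markers 1 passed, at 264.6 to 398.1, 329.3 to 395.1, 258.7 to 451.4 and 319.3 to 605, and the groups overlapped. The 18S control was 282.4 to 461.8 in treated Rb null cells, 188 to 245.4 in treated wildtype cells, and at most 121.9 in untreated cells. The part of these in the differences below was not tested, and in RNA of whole cultures fewer cells of a type and less RNA per cell cannot be told apart.

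Most respiratory chain genes differed little between the 4 groups. Differences were tested with limma on log2(signal + 10.4), 1 mean per group, with Benjamini-Hochberg adjustment over 13575 probe sets, and each gene was counted through 1 probe set. A gene is said to have risen or fallen at an adjusted p under 0.05, and to be called when it also changed at least 1.5-fold. Of the 83 genes, 16 (19.3%) were called in at least 1 of 5 contrasts, against 54.1% of the 7945 genes tested, and 67 in none. Rb null minus wildtype with cisplatin, 2 genes were called higher and 4 lower (7.23%), against 23% of all genes tested, of which 9.67% higher and 13.3% lower. Without cisplatin, 1 was higher and 1 lower (2.41%), against 13.2% of all genes (8.07% and 5.08%). Cisplatin minus untreated, 6 were called higher and 3 lower in Rb null cells (10.8%), against 36.9% of all genes (16.6% and 20.3%), and 2 and 2 in wildtype cells (4.82%), against 27.5% (14.8% and 12.7%). The cisplatin response of Rb null cells minus that of wildtype cells was called for 2 genes as higher and 3 as lower (6.02%), against 23.7% (8.7% and 15%). The members gave stronger signals than the genes tested as a whole. Their median log2 signal per array was 11.048 to 11.266, against 9.0226 to 9.0988. The part of signal level in these shares was not tested.

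**Figure D1:**
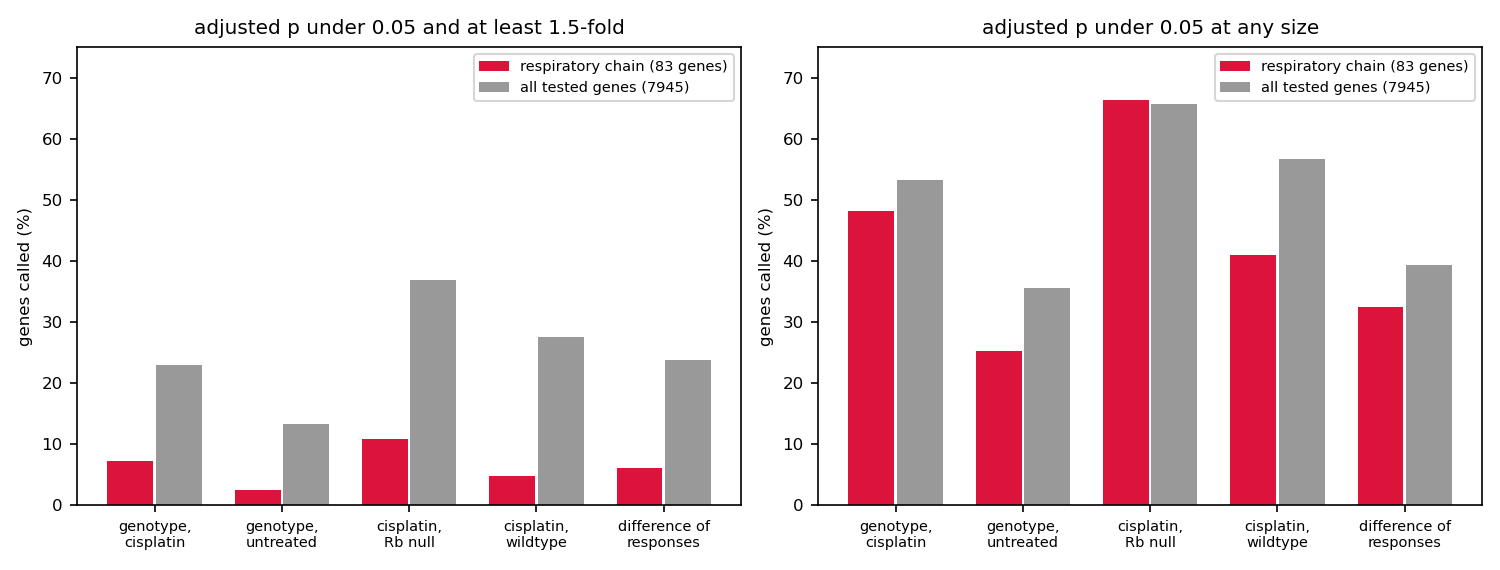
Share of genes called in each of 5 contrasts (percent, y axis), with red bars for the 83 respiratory chain genes and grey bars for all 7945 genes tested, at an adjusted p under 0.05 with at least 1.5-fold change (left) or of any size (right). With the 1.5-fold minimum the red bars reach at most 10.8%, where the grey bars lie between 13.2% and 36.9%.

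Smaller differences were common. At any size, 19 members were higher and 21 lower in Rb null than in wildtype cells with cisplatin (48.2%, against 53.2% of all genes, of which 22.9% higher and 30.2% lower), and 6 were higher and 15 lower without it (25.3%, against 35.5%, of which 18.7% and 16.8%). With cisplatin, 32 rose and 23 fell in Rb null cells (66.3%, against 65.6%, of which 31.3% and 34.3%), and 22 rose and 12 fell in wildtype cells (41%, against 56.6%, of which 32% and 24.5%). The responses of the genotypes differed for 27 members, 15 in the positive and 12 in the negative direction (32.5%, against 39.3%, of which 15.2% and 24.1%). Groups of 3 arrays often did not overlap in these data. In Rb null against wildtype cells with cisplatin the arrays of 41 members (49.4%, 20 higher and 21 lower) stood apart, against 60.8% of all genes (26.8% higher and 34% lower), and without cisplatin those of 32 members (38.6%, 11 higher and 21 lower), against 47.4% (24.3% and 23.1%). For cisplatin in Rb null cells they stood apart in 56 members (67.5%, 32 higher and 24 lower), against 69.8% (33.5% and 36.3%), and in wildtype cells in 36 members (43.4%, 23 higher and 13 lower), against 62.4% (34.9% and 27.5%). The median log2 difference of the members was -0.0027 for genotype with cisplatin (-0.051 over all genes), -0.082 for genotype without cisplatin (-0.0093), 0.11 for cisplatin in Rb null cells (-0.017), 0.036 for cisplatin in wildtype cells (0.057) and 0.062 for the difference of responses (-0.075). These medians are near 0 and some depend on how arrays are scaled. With arrays centred on their median, the median of all probe sets for the difference of responses was 0.0512, against -0.0691 on the deposited scale. The members' median was then 0.182, and with quantile normalization -0.00408. The median for genotype with cisplatin was 0.065 with centred arrays and -0.0508 with quantile normalization, and that for cisplatin in wildtype cells -0.00295 and 0.0406. With centred arrays the genes higher and lower at any size numbered 25 and 6 for the difference of responses, 40 and 12 for cisplatin in Rb null cells, and 2 and 23 for genotype without cisplatin. With quantile normalization they numbered 10 and 10, 24 and 24, and 7 and 15. Shares over all genes under these scalings were not counted, so these splits have no background beside them. Centring also moved the median of all probe sets, from -0.0228 to 0.0589 for cisplatin in Rb null cells. For genotype without cisplatin it moved from -0.00431 to -0.0569.

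**Figure D2:**
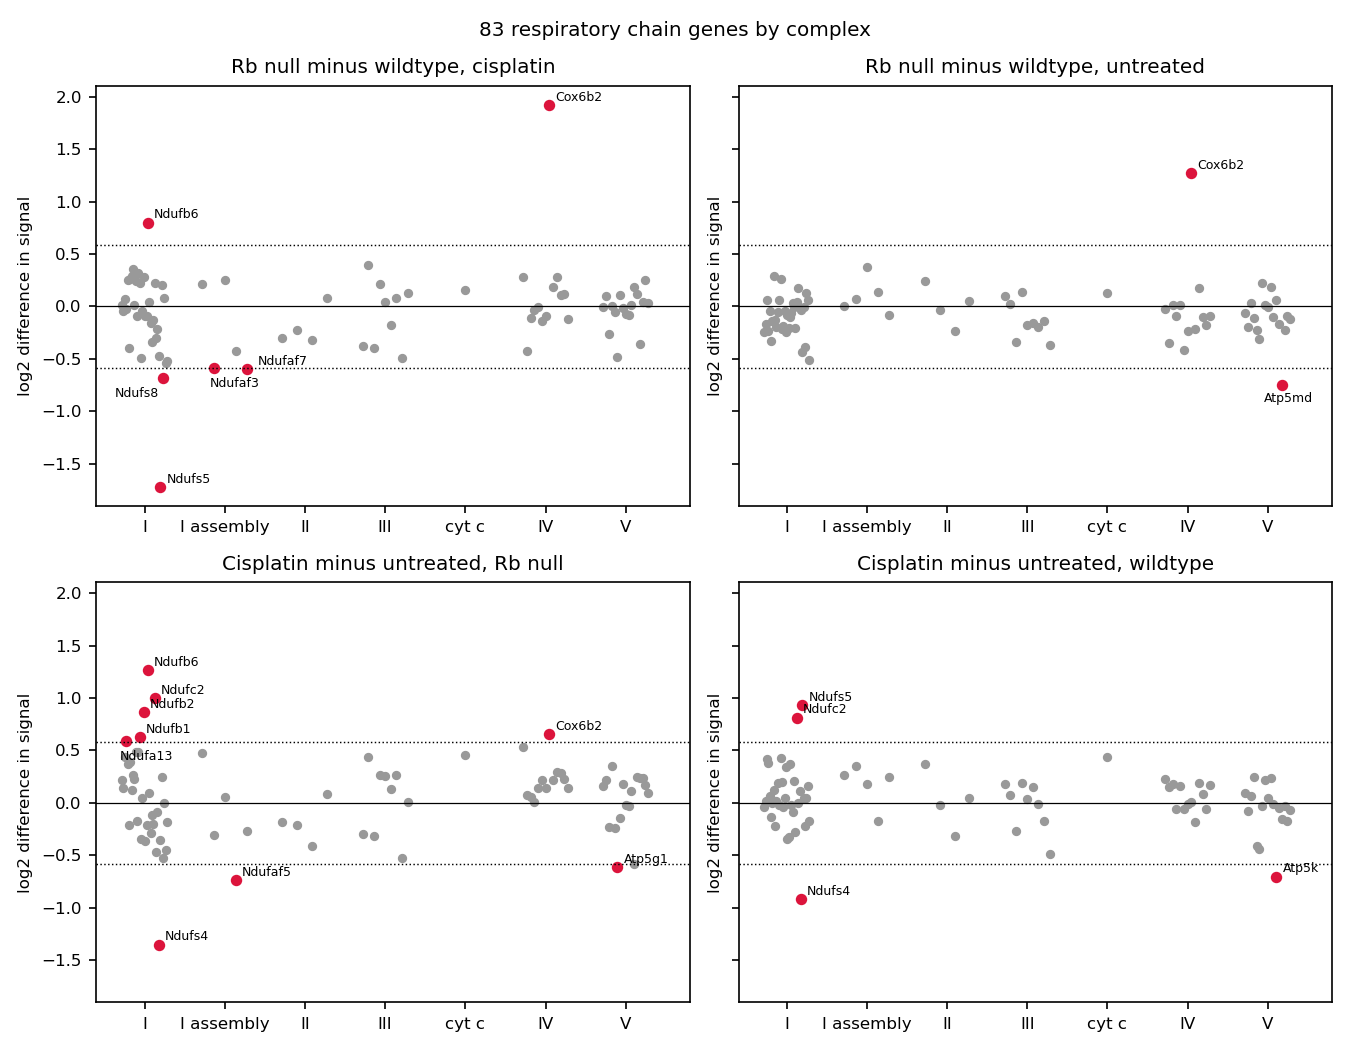
Difference in log2 signal (y axis) of each of 83 genes, in columns by complex, for Rb null minus wildtype (upper panels, with cisplatin left and untreated right) and cisplatin minus untreated (lower panels, Rb null left and wildtype right). Red points are called genes, dotted lines mark 1.5-fold, and most points of every complex lie between the lines.

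Complex I, the NADH dehydrogenase, held 9 of the 16 genes called in any contrast (56.2%), and is 34 of the 83 tested (41%). These 9 are 26.5% of its 34 genes, below the 54.1% of all genes tested that were called in any contrast. Among its 34 genes, cisplatin raised 14 and lowered 12 in Rb null cells (76.5%, against 65.6% of all genes), and raised 10 and lowered 5 in wildtype cells (44.1%, against 56.6%). Called were 5 and 1 in Rb null cells (17.6%, against 36.9%) and 2 and 1 in wildtype cells (8.82%, against 27.5%). In Rb null against wildtype cells, 10 were higher and 10 lower with cisplatin (58.8%, against 53.2%, with 1 and 2 called), and 2 were higher and 8 lower without it (29.4%, against 35.5%, with 0 called). The median log2 difference for genotype with cisplatin was -0.034, and 0.0336 with centred arrays.

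Ndufs5, an accessory subunit on the intermembrane space side, differed most between the genotypes among the complex I genes. Its signal was 348, 338 and 377 in treated Rb null cells, against 1091, 1230.1 and 1252 in treated wildtype cells, a difference of -1.72 ± 0.13 on the log2 scale (SE; adjusted p = 1.01e-07), or 3.29-fold lower. Without cisplatin it was 359, 507 and 514 in Rb null cells against 618, 695 and 553 in wildtype cells, -0.44 ± 0.13 on the log2 scale (SE; adjusted p = 0.0159). The arrays of the genotypes did not overlap under either condition. With cisplatin Ndufs5 fell by 0.35 (adjusted p = 0.0259) in Rb null cells, where 1 untreated array lay within the range of the treated ones. In wildtype cells it rose by 0.93 ± 0.13 on the log2 scale (SE; adjusted p = 2.33e-05), and treated and untreated arrays stood apart. The difference of responses was -1.28 ± 0.18 on the log2 scale (SE; adjusted p = 8.00e-05). A second probe set, shared with the pseudogene Ndufs5-ps, gave smaller differences: -0.85 (adjusted p = 1.37e-05) for genotype with cisplatin and 0.40 (adjusted p = 0.00498) for cisplatin in wildtype cells. On it the change in Rb null cells, -0.16 (adjusted p = 0.188), and the untreated genotypes, -0.28 (adjusted p = 0.0531), did not pass the test, and the difference of responses was -0.56 (adjusted p = 0.00828), under the 1.5-fold minimum.

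Ndufs4, an accessory subunit of the NADH-oxidizing module in which mutations cause Leigh syndrome in humans, fell in both genotypes. Signals were 418, 394 and 428 in treated Rb null cells against 1165, 980.4 and 1067 in untreated ones, -1.35 ± 0.096 on the log2 scale (SE; adjusted p = 1.59e-08), or 2.55-fold lower. In wildtype cells they were 567, 591 and 568 with cisplatin against 1261, 972 and 1071 without, -0.92 ± 0.096 on the log2 scale (SE; adjusted p = 1.51e-06). Treated and untreated arrays did not overlap in either genotype. With cisplatin it was lower in Rb null than in wildtype cells, with a difference of -0.47 (adjusted p = 9.70e-04). Without cisplatin the difference was -0.035 (adjusted p = 0.819). The fall was larger in Rb null cells, with a difference of responses of -0.43 (adjusted p = 0.0214). Another probe set of the gene gave -0.64 in Rb null cells (adjusted p = 0.0067) and -0.35 in wildtype cells (adjusted p = 0.118).

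Ndufb6, Ndufc2 and Ndufb2, accessory subunits of the membrane arm, rose with cisplatin in both genotypes. Ndufb6 signals were 5236, 4756 and 5349 in treated Rb null cells against 2055, 2224 and 2074 in untreated ones, 1.27 ± 0.069 on the log2 scale (SE; adjusted p = 9.07e-10). In wildtype cells they were 2753, 3097 and 2952 with cisplatin against 2301, 2395 and 2121 without, 0.37 ± 0.069 on the log2 scale (SE; adjusted p = 4.15e-04). No treated array overlapped the untreated ones, and the rise was larger in Rb null cells by 0.90 (adjusted p = 8.19e-06). With cisplatin Ndufb6 was 1.74-fold higher in Rb null than in wildtype cells, a log2 difference of 0.80 (adjusted p = 4.40e-07). The untreated genotypes overlapped, at -0.10 (adjusted p = 0.295). Its second probe set gave 1.44 for cisplatin in Rb null cells, 0.41 in wildtype cells and 0.77 for genotype with cisplatin.

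Ndufc2 signals were 6159, 5845 and 6083 in treated Rb null cells against 2836, 3145 and 3076 in untreated ones, 1.00 ± 0.069 on the log2 scale (SE; adjusted p = 1.17e-08). In wildtype cells they were 4668, 5380.1 and 5491 with cisplatin against 2884, 3107 and 2817 without, 0.81 ± 0.069 on the log2 scale (SE; adjusted p = 1.59e-07). The responses of Ndufc2 in the genotypes differed by 0.18 (adjusted p = 0.159), so no difference was detected there. Ndufb2 signals were 3997, 3394 and 3525 in treated Rb null cells against 1806, 2188 and 2000.1 in untreated ones, 0.86 ± 0.086 on the log2 scale (SE; adjusted p = 5.88e-07). In wildtype cells they were 2943, 2788 and 3276 against 2432, 2438 and 2227, 0.34 ± 0.086 on the log2 scale (SE; adjusted p = 0.00377), and the difference of responses was 0.52 (adjusted p = 0.0038). Treated and untreated arrays of both genes stood apart in both genotypes. Ndufa13, which is needed for assembly of the complex, and Ndufb1, a small membrane-arm subunit, were called as higher in treated Rb null cells, by 0.59 (adjusted p = 8.03e-05) and 0.63 (adjusted p = 2.63e-04). These 2 calls lay close to the 1.5-fold minimum. Ndufa13 was under it without array b of treated (0.51) or array 1 of untreated Rb null cells (0.50) and with quantile normalization (0.53), and Ndufb1 without array c of treated (0.56) or array 3 of untreated Rb null cells (0.55).

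**Figure D3:**
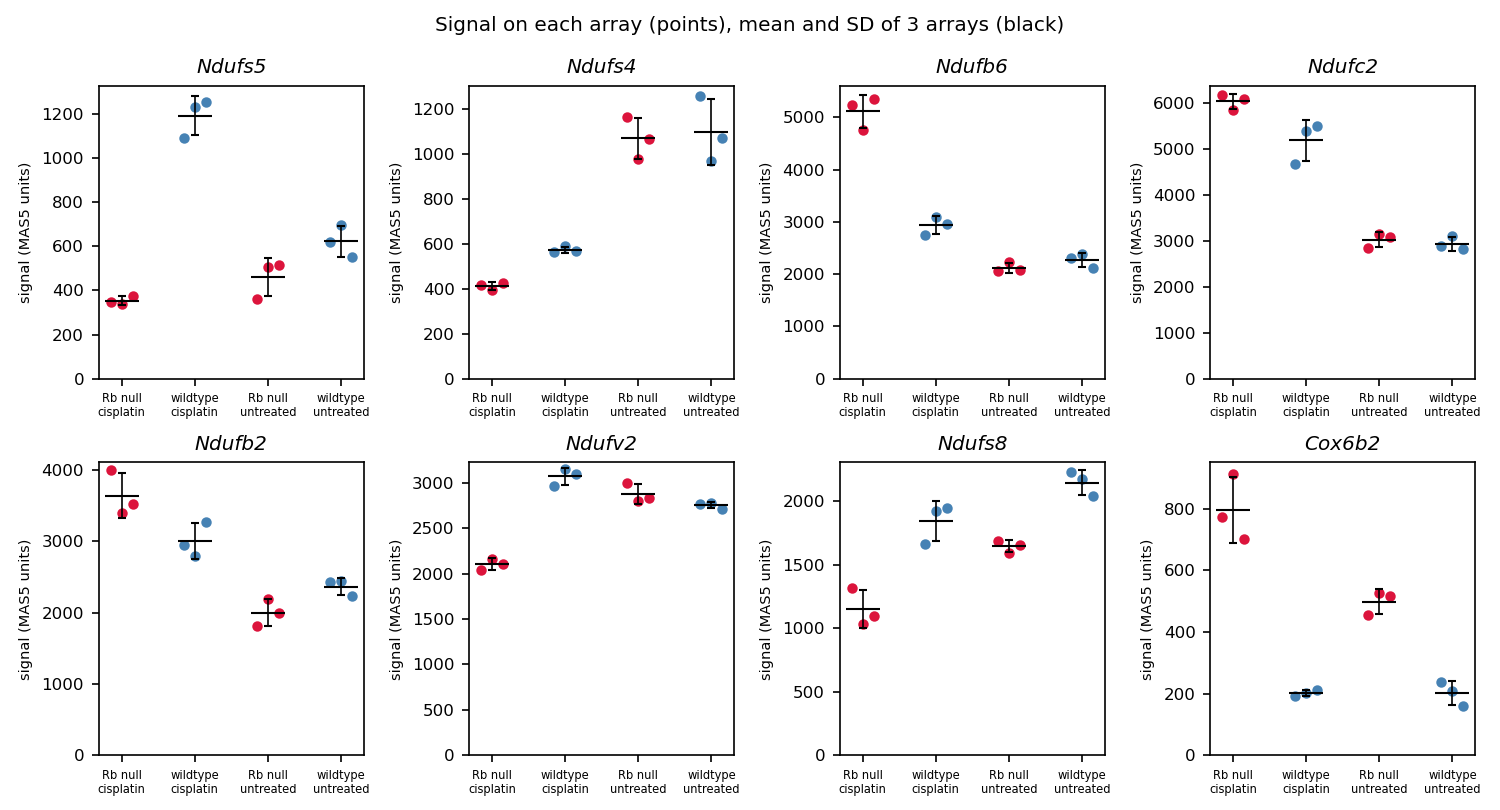
Signal per array (points, MAS5 units, y axis) of 8 genes in treated Rb null, treated wildtype, untreated Rb null and untreated wildtype cells, with mean and SD of 3 arrays in black. In Ndufs5 the treated wildtype arrays are the high ones, in Ndufb6 the treated Rb null arrays, and in Cox6b2 both Rb null groups lie above both wildtype groups.

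Of 6 core subunits of the peripheral arm, Ndufs8 was called between genotypes and Ndufv2 for the difference of responses. Ndufs8, Ndufv2, Ndufs1 and Ndufs7 carry iron-sulfur centres, Ndufv1 an iron-sulfur centre and the flavin, and Ndufs3 neither. Ndufs8 was 1315, 1033 and 1093 in treated Rb null cells against 1663, 1918 and 1943 in treated wildtype cells, -0.68 ± 0.089 on the log2 scale (SE; adjusted p = 2.10e-05). Without cisplatin it was 1684, 1591 and 1651 against 2225, 2169.8 and 2038, -0.38 (adjusted p = 0.00408), and the genotypes did not overlap under either condition. The 6 tested probe sets of Ndufs8 ran from -0.68 to 0.15 for genotype with cisplatin and from -0.38 to 0.34 without it, so its difference depends on the probe set. With cisplatin 4 of the 6 were lower past the test, counting this one, and the other 2 did not pass. Ndufv2 was 2039, 2166 and 2108 in treated Rb null cells, against 2967, 3155 and 3096 in treated wildtype, 2999, 2800.1 and 2838 in untreated Rb null and 2764, 2779 and 2717 in untreated wildtype cells. It fell in Rb null cells by 0.45 (adjusted p = 4.49e-06) and rose in wildtype cells by 0.16 (adjusted p = 0.0245). The difference of responses was -0.61 ± 0.077 on the log2 scale (SE; adjusted p = 3.15e-05), and under the 1.5-fold minimum without array 1 of untreated Rb null cells (-0.58) and with centred arrays (-0.49). Its other probe sets gave -0.16 (adjusted p = 0.29) and -0.41 (adjusted p = 0.00306), neither of them called. Ndufs1, the largest core subunit, was 656, 968 and 761 in treated Rb null cells against 1143, 1049 and 1086 in untreated ones, -0.47 (adjusted p = 0.00213), and 914, 1048 and 949 against 1027, 914 and 962 in wildtype cells, 0.0032 (adjusted p = 0.983). Ndufs3 was 1578, 1554 and 1538 in treated Rb null cells, 1628, 1874 and 1928 in treated wildtype cells, 1598, 1647 and 1718 in untreated Rb null cells and 1861, 1581 and 1587 in untreated wildtype cells. It was lower in Rb null than in wildtype cells with cisplatin, at -0.21 (adjusted p = 0.0379). Ndufv1, which binds FMN and NADH, was 1574, 1759.9 and 1864 in treated Rb null cells, 1591, 1634 and 1662 in treated wildtype cells, 1834, 1489.5 and 1887 in untreated Rb null cells and 1607, 1555 and 1566 in untreated wildtype cells, and no contrast passed the test. Ndufs7 rose with cisplatin in Rb null cells by 0.25 (adjusted p = 0.00654) and was at 0.049 (adjusted p = 0.595) in wildtype cells, where its other probe set gave 0.49 (adjusted p = 3.36e-05).

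Some accessory subunits differed between the genotypes already without cisplatin. Ndufv3, at the NADH-oxidizing tip, was 1541, 1364 and 1347 in untreated Rb null cells against 2122, 1876 and 2074 in untreated wildtype cells, -0.51 ± 0.071 on the log2 scale (SE; adjusted p = 6.01e-05), and the difference with cisplatin was -0.52 (adjusted p = 3.19e-05). The genotypes did not overlap in either condition. Ndufab1, the mitochondrial acyl carrier protein, was 2550.1, 2691 and 2696 in untreated Rb null cells against 2151, 2210.3 and 2269 in untreated wildtype cells, 0.26 (adjusted p = 0.00507). Its other probe set gave 0.022 (adjusted p = 0.89) for the untreated genotypes. It also rose with cisplatin in both genotypes, by 0.49 (adjusted p = 7.63e-06) in Rb null cells and 0.42 (adjusted p = 4.35e-05) in wildtype cells. Ndufa5, of the ubiquinone-binding module, was 1238, 1104 and 1030.4 in untreated Rb null cells against 866, 840.3 and 1043 in untreated wildtype cells, 0.29 (adjusted p = 0.0484), and these arrays overlapped. Ndufa4, named for complex I and later assigned to complex IV, rose with cisplatin in Rb null cells by 0.39 (adjusted p = 1.02e-05) and was at -0.0032 (adjusted p = 0.964) in wildtype cells. Its difference of responses was 0.40 (adjusted p = 7.05e-04). The complex I genes not described above lay between -0.36 (Ndufb3) and 0.49 (Ndufa8) for cisplatin in Rb null cells.

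The 5 complex I assembly factors of this naming, which help build the complex and are not part of it, included 3 that were lower and 1 that was higher in Rb null than in wildtype cells with cisplatin. These 4 of 5 (80%) stand against 53.2% of all genes, with a median log2 difference of -0.43, against -0.051 over all genes. Without cisplatin none passed the test, and the median was 0.074. Ndufaf3, which acts early in assembly, was 204, 208 and 194 in treated Rb null cells against 310.3, 297 and 318 in treated wildtype cells, -0.59 ± 0.1 on the log2 scale (SE; adjusted p = 2.18e-04). Untreated cells had 262, 239 and 257 in the Rb null and 231, 224 and 264 in the wildtype group, which overlapped, and the difference of responses was -0.66 ± 0.14 on the log2 scale (SE; adjusted p = 0.00216). Ndufaf7, an arginine methyltransferase, was 202, 172 and 169 in treated Rb null cells against 297, 286 and 254 in treated wildtype cells, -0.60 ± 0.12 on the log2 scale (SE; adjusted p = 5.90e-04). Ndufaf5, an arginine hydroxylase, was 183, 189 and 169 in treated Rb null cells against 308, 306 and 307 in untreated ones, -0.74 ± 0.12 on the log2 scale (SE; adjusted p = 6.20e-05), and 231, 256 and 249 against 333, 251 and 255 in wildtype cells, -0.17 (adjusted p = 0.234). Each pair of groups called here stood apart. The Ndufaf3 and Ndufaf7 calls for genotype with cisplatin lay at the 1.5-fold minimum and were lost with quantile normalization, at -0.48 and -0.50, and with centred arrays, at -0.52 and -0.53. They were also lost without array c of treated Rb null cells, at -0.56 and -0.55, and without array a of treated wildtype cells, at -0.58 and -0.55. Ndufaf3 was at -0.57 without array c of treated wildtype cells, and Ndufaf7 at -0.58 without array b of those and at -0.56 without array b of treated Rb null cells. The Ndufaf3 difference of responses was -0.50 with quantile normalization and -0.54 with centred arrays. Its call was lost with either, and with the 25th percentile added before the log. Ndufaf1 rose with cisplatin in both genotypes, by 0.48 (adjusted p = 1.41e-04) in Rb null cells and 0.27 (adjusted p = 0.0134) in wildtype cells, and no contrast of Ndufaf4 passed the test.

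Complex II, succinate dehydrogenase, had 0 of 4 genes called by limma in any contrast, and at any size at most 2 passed the test in a contrast. Those 2 (50%) were for genotype with cisplatin and for cisplatin in Rb null cells, against 53.2% and 65.6% of all genes. Sdha, the flavoprotein that holds the catalytic site, was 1948, 2050.2 and 2022 in treated Rb null cells against 2298, 2617 and 2519 in treated wildtype cells, -0.30 (adjusted p = 0.00453). Without cisplatin it was 2361, 2254 and 2199.8 in Rb null cells against 2102, 1955 and 1711 in wildtype cells, 0.24 (adjusted p = 0.0238). The genotypes stood apart in both conditions on this probe set, in opposite directions. With cisplatin Sdha was at -0.18 (adjusted p = 0.0556) in Rb null cells and rose by 0.37 (adjusted p = 9.59e-04) in wildtype cells, and the responses differed by -0.55 ± 0.11 on the log2 scale (SE; adjusted p = 0.0013). A second Sdha probe set did not show this: it gave -0.093 (adjusted p = 0.438) for genotype with cisplatin, -0.028 (adjusted p = 0.854) without, 0.18 (adjusted p = 0.107) for cisplatin in Rb null cells and -0.065 (adjusted p = 0.738) for the difference of responses. Sdhb, the iron-sulfur subunit, was 2178, 2179 and 1944 in treated Rb null cells, 2311, 2603 and 2453 in treated wildtype cells, 2611, 2411 and 2287 in untreated Rb null cells and 2451, 2437 and 2566 in untreated wildtype cells. It fell with cisplatin in Rb null cells by 0.21 (adjusted p = 0.0163) and was lower there than in treated wildtype cells, at -0.22 (adjusted p = 0.0158). Of the membrane anchors, Sdhc fell in Rb null cells by 0.41 (adjusted p = 0.0234), with overlapping arrays, and Sdhd passed no test. The median for cisplatin in Rb null cells was -0.20, and it was negative with either other scaling, at -0.255 with quantile normalization and -0.114 with centred arrays.

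On the probe sets counted, complex III, the cytochrome bc1 complex, also had 0 of 9 genes called by limma, with smaller changes past the test. Cisplatin raised 3 and lowered 3 in Rb null cells (66.7%, against 65.6% of all genes). In wildtype cells it raised 2 and lowered 2 (44.4%, against 56.6%). In Rb null against wildtype cells 2 were higher and 4 lower with cisplatin (66.7%, against 53.2%). Without it 0 were higher and 2 lower (22.2%, against 35.5%). Cyc1, cytochrome c1, was 2209, 2317 and 2057 in treated Rb null cells against 2791, 3057 and 2706 in treated wildtype cells, -0.38 (adjusted p = 2.81e-04), while untreated cells had 2673, 2705 and 2695 in the Rb null and 2389, 2505 and 2645 in the wildtype group, 0.1 (adjusted p = 0.274). It fell with cisplatin in Rb null cells by 0.29 (adjusted p = 0.00122), rose in wildtype cells by 0.18 (adjusted p = 0.0313), and the responses differed by -0.48 ± 0.093 on the log2 scale (SE; adjusted p = 0.00116). Uqcrq, a small subunit near the ubiquinone site, was 2061, 2076 and 1989 in treated Rb null cells against 1935, 2098 and 2057 in untreated ones, 0.0093 (adjusted p = 0.917), and these overlapped. In wildtype cells it was 1942, 1813 and 1851 with cisplatin against 2911, 2445 and 2511 without, -0.48 ± 0.07 on the log2 scale (SE; adjusted p = 4.15e-05), and these arrays stood apart. The difference of responses was 0.49 (adjusted p = 0.00145). A second Uqcrq probe set gave 0.18 (adjusted p = 0.446) in wildtype cells and 0.083 (adjusted p = 0.839) for the difference of responses. Uqcr10, another small subunit, was 2416, 2136 and 2188 in treated Rb null cells against 1724, 1733 and 1669 in treated wildtype cells, 0.39 ± 0.095 on the log2 scale (SE; adjusted p = 0.00318). That was the lowest of its 3 probe sets, which reached 0.97 for this contrast. For the difference of responses they reached 1.04, against 0.37 on the set counted.

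Uqcrfs1, the Rieske iron-sulfur protein, was 2066, 2247 and 2107 in treated Rb null cells, 1651, 2252 and 2224 in treated wildtype cells, 1429, 2088 and 1895 in untreated Rb null cells and 2143, 2077 and 1909 in untreated wildtype cells. No contrast of it passed the test, and the groups overlapped. Uqcrc1, a core protein of the matrix side, was 4051, 5142 and 4737 in treated Rb null cells, 4117, 5270.1 and 4174 in treated wildtype cells, 3942, 3685 and 3970 in untreated Rb null cells and 4057, 4597 and 4509.7 in untreated wildtype cells, with a rise of 0.26 (adjusted p = 0.0333) with cisplatin in Rb null cells. Uqcr11 was lower in Rb null cells in both conditions, at -0.39 (adjusted p = 2.96e-04) with cisplatin and -0.34 (adjusted p = 0.00148) without, and fell with cisplatin in both genotypes. Cytochrome c itself, Cycs, the mobile carrier that also triggers caspases when released, rose in both genotypes. Its signals were 5415, 6071 and 6361 in treated Rb null cells against 4471, 4188 and 4273 in untreated ones, 0.46 ± 0.062 on the log2 scale (SE; adjusted p = 1.21e-05), and 5453, 5425 and 5079 in treated wildtype cells against 3853, 3928 and 4011 in untreated ones, 0.43 ± 0.062 on the log2 scale (SE; adjusted p = 3.12e-05). Treated and untreated arrays stood apart in both genotypes, and the responses differed by 0.026 (adjusted p = 0.842). On this point the 3 Cycs probe sets differ: the other 2 gave a larger response in Rb null cells, by 0.38 (adjusted p = 0.0232) and 0.37 (adjusted p = 0.0189), and 0.50 (adjusted p = 2.27e-04) and 0.49 (adjusted p = 1.38e-04) for genotype with cisplatin, against 0.16 (adjusted p = 0.0433) on the set counted.

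Complex IV, cytochrome c oxidase, was the only complex in which all 13 tested genes had a positive log2 difference for cisplatin in Rb null cells. Their median was 0.22 and their lowest value 0.0045, and 3883 of all 7945 genes were positive. This holds for the probe sets counted: other sets gave -0.67 for Cox5a and -0.13 for Cox6c. Past the test were 6 of the 13 (46.2%, against 65.6% of all genes), and 1 was called (7.69%, against 36.9%). The count of positive genes was 13 of 13 with centred arrays and 10 of 13 with quantile normalization (median 0.15). In wildtype cells 3 rose and 1 fell (30.8%, against 56.6%), and the median was 0.081. No test against the other complexes was made. Cox6b2, the isoform of subunit VIb known from testis, was called in 4 of the 5 contrasts. Its signals were 773, 913 and 703 in treated Rb null cells against 193, 202 and 210.3 in treated wildtype cells, 1.92 ± 0.13 on the log2 scale (SE; adjusted p = 5.47e-08), or 3.78-fold higher. Without cisplatin they were 454, 526 and 518 in Rb null cells against 239, 208 and 160.2 in wildtype cells, 1.27 ± 0.13 on the log2 scale (SE; adjusted p = 4.28e-06), or 2.42-fold higher. Every Rb null array lay above every wildtype array. Cisplatin raised Cox6b2 in Rb null cells by 0.66 ± 0.13 on the log2 scale (SE; adjusted p = 5.91e-04), and in wildtype cells the difference was 0.011 (adjusted p = 0.953). The difference of responses was 0.65 ± 0.19 on the log2 scale (SE; adjusted p = 0.0154). Without array b of treated Rb null cells the rise was 0.56 and the difference of responses 0.55, both under the 1.5-fold minimum. That difference was 0.58 without array 1 of untreated Rb null cells and 0.52 without array 1 of untreated wildtype cells, likewise under it.

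On the probe sets counted, the widely expressed subunits of complex IV moved less. Cox4i1, the common isoform of the regulatory subunit IV, was 7683, 8097 and 7859 in treated Rb null cells against 5406, 5613 and 5269.8 in untreated ones, 0.54 ± 0.06 on the log2 scale (SE; adjusted p = 2.04e-06), and 6344, 6322 and 6759 against 5984, 5507 and 5068 in wildtype cells, 0.23 (adjusted p = 0.00449). Treated and untreated arrays stood apart in both genotypes, and the responses differed by 0.30 (adjusted p = 0.0118). Cox5a was 5977, 6175 and 5851 in treated Rb null cells, 5947, 6718 and 6768 in treated wildtype cells, 5436, 5920.4 and 5921 in untreated Rb null cells and 6105, 5497 and 5512 in untreated wildtype cells. It rose in wildtype cells by 0.18 (adjusted p = 0.0253), with overlapping arrays. Cox7a2 rose in both genotypes, by 0.29 (adjusted p = 5.63e-05) in Rb null cells and 0.19 (adjusted p = 0.00243) in wildtype cells, and was higher in Rb null cells in both conditions, by 0.28 (adjusted p = 1.74e-04) and 0.18 (adjusted p = 0.0081). Cox6c rose in Rb null cells by 0.22 (adjusted p = 0.00178) and fell in wildtype cells by 0.18 (adjusted p = 0.00812), with a difference of responses of 0.40 (adjusted p = 6.46e-04). Its other probe set gave -0.13 (adjusted p = 0.574) in Rb null cells. That set gave -0.99 for cisplatin in wildtype cells, 0.66 for genotype with cisplatin and 0.86 for the difference of responses. Cox6c was lower in Rb null than in wildtype cells without cisplatin, at -0.22 (adjusted p = 0.00486), and higher with it, at 0.19 (adjusted p = 0.00785).

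Among the other tissue isoforms, Cox4i2, Cox6a2 and Cox8c passed the filter. Cox4i2, the lung and hypoxia isoform, was 125, 108 and 96.9 in treated Rb null cells, 200, 122 and 140 in treated wildtype cells, 124, 101 and 87.4 in untreated Rb null cells and 78.9, 132 and 229.6 in untreated wildtype cells. Cox6a2, the isoform of heart and skeletal muscle, was 138, 126 and 87.6 in treated Rb null cells, 99.1, 122 and 172 in treated wildtype cells, 140.4, 76.4 and 85.5 in untreated Rb null cells and 188, 93.4 and 135 in untreated wildtype cells. Cox8c, known from testis, was 451, 399.5 and 367 in treated Rb null cells, 449, 398 and 478 in treated wildtype cells, 393, 421 and 294 in untreated Rb null cells and 354, 399 and 422 in untreated wildtype cells. In all 3 the groups overlapped and no contrast passed the test. Cox7a1, an isoform of muscle, did not pass the filter. Its signals were 53.6, 41.4 and 50.1 in treated Rb null cells against 22.1, 19.2 and 9.30 in untreated ones, and 66.7, 54.3 and 55.3 in treated wildtype cells against 38.5, 35.9 and 14.5 in untreated ones. Treated and untreated arrays stood apart in both genotypes. In a limma fit with no filter it was higher by 1.13 (adjusted p = 0.00502) in Rb null cells and by 0.85 (adjusted p = 0.0323) in wildtype cells. Cox7c, a common subunit, was read by a pair of probe sets that did not pass either. The first read 38 to 48.2 in treated and 16.5 to 17.8 in untreated Rb null cells. The second read 86.1 to 138.6 and 33.3 to 53.2. In the limma fit with no filter both were higher with cisplatin in Rb null cells, by 0.98 (adjusted p = 0.00129) and 1.06 (adjusted p = 0.0026). In wildtype cells they gave -0.11 (adjusted p = 0.728) and 1.07 (adjusted p = 0.00304). The pair also differed for genotype with cisplatin, at 0.84 (adjusted p = 0.00574) and 0.11 (adjusted p = 0.789). For the difference of responses they gave 1.09 (adjusted p = 0.014) and -0.015 (adjusted p = 0.983). Cox8b, another muscle isoform, was 9.10, 14.7 and 32.9 in treated Rb null cells, 32.9, 24.2 and 4.80 in treated wildtype cells, 12.7, 12.8 and 25.4 in untreated Rb null cells and 15.5, 5.30 and 12.7 in untreated wildtype cells, and passed no test in that fit.

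Complex V, the ATP synthase, had 2 of 17 genes called for cisplatin, 1 in each genotype, and 1 for genotype without cisplatin. Each call is 5.88% of the 17, against 36.9% of all genes in Rb null cells, 27.5% in wildtype cells and 13.2% for genotype. Cisplatin raised 7 and lowered 4 in Rb null cells (64.7%, against 65.6% of all genes). In wildtype cells it raised 3 and lowered 4 (41.2%, against 56.6%). Atp5b, the catalytic beta subunit, was 6157, 6919 and 6837 in treated Rb null cells against 5362, 5795 and 5956 in untreated ones, 0.22 ± 0.062 on the log2 scale (SE; adjusted p = 0.00667), and 6031, 6149 and 6439 against 6473, 6226 and 6935 in wildtype cells, -0.076 (adjusted p = 0.324). Treated and untreated arrays stood apart in Rb null cells and overlapped in wildtype cells, and the responses differed by 0.29 (adjusted p = 0.0169). Atp5g1, 1 of 3 genes for the same c-ring subunit, was 1109.5, 1056 and 1025 in treated Rb null cells against 1555, 1721 and 1610 in untreated ones, -0.61 ± 0.12 on the log2 scale (SE; adjusted p = 5.37e-04), and 1527, 1578 and 1366 against 2611, 1880.4 and 1678 in wildtype cells, -0.44 (adjusted p = 0.00751). Its call in Rb null cells lay at the 1.5-fold minimum and was lost with centred arrays (-0.53), without array c of treated cells (-0.58) and without array 2 of untreated cells (-0.57). The other c-ring genes, Atp5g2 and Atp5g3, were at -0.14 (adjusted p = 0.151) and 0.18 (adjusted p = 0.00269) for cisplatin in Rb null cells.

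Atp5md, a small membrane subunit of the synthase dimer, was 965, 1039 and 1042 in untreated Rb null cells against 1760.1, 2068 and 1374 in untreated wildtype cells, -0.75 ± 0.14 on the log2 scale (SE; adjusted p = 9.75e-04). These arrays did not overlap. With cisplatin it was 1129, 1135 and 1352 against 1906, 1341 and 1431, -0.36 (adjusted p = 0.0502), and the arrays overlapped. Atp5k, subunit e, was 2401, 2243 and 2810.4 in treated wildtype cells against 2635, 4826 and 5156 in untreated ones, -0.70 ± 0.23 on the log2 scale (SE; adjusted p = 0.0202), with overlapping arrays. The call was lost without any 1 of 4 arrays: the difference was -0.57 and -0.53 without array 2 or 3 of untreated cells, and -0.68 and -0.63 without array a or b of treated cells, with adjusted p of 0.0526 to 0.0962. In Rb null cells Atp5k was 3586, 2067 and 3016 with cisplatin against 3373, 4999.8 and 4452 without, -0.58 (adjusted p = 0.042).

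The responses to cisplatin were compared between genotypes, which share no arrays. Over the 83 members the response in Rb null cells correlated with that in wildtype cells at r = 0.569 (rho = 0.476), and 53 (63.9%) had the same sign. Over all 7945 genes the values were 0.707, 0.663 and 73.4%. These are descriptions across genes, which are not independent replicates. Among genes past the test in both genotypes, 14 members rose in both, 9 fell in both and 6 went opposite ways (16.9%, 10.8% and 7.23%, against 20.6%, 19% and 4.44% of all genes). Of the 6, Atp5o and Cox6c rose in Rb null cells and fell in wildtype cells, and Cyc1, Ndufaf3, Ndufs5 and Ndufv2 fell in Rb null cells and rose in wildtype cells. The 14 include Cycs, Ndufa12, Ndufa13, Ndufab1, Ndufb2, Ndufb6, Ndufc2, Cox4i1 and Cox7a2, and the 9 include Ndufs4, Ndufb3, Ndufs8, Uqcr11, Atp5e and Atp5g1. These directions are those of the probe sets counted. The other Atp5o set was at 0.062 in wildtype cells, and that of Cox6c at -0.13 in Rb null and -0.99 in wildtype cells. Another Ndufv2 set was at 0.041 in Rb null cells, and another Ndufs8 set at 0.45 in wildtype cells. The assembly factors had a median difference of responses of -0.52, complex II of -0.14, and complex IV of 0.15. With quantile normalization these were -0.366, -0.166 and 0.0956, and with centred arrays -0.395, -0.0214 and 0.272.

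**Figure D4:**
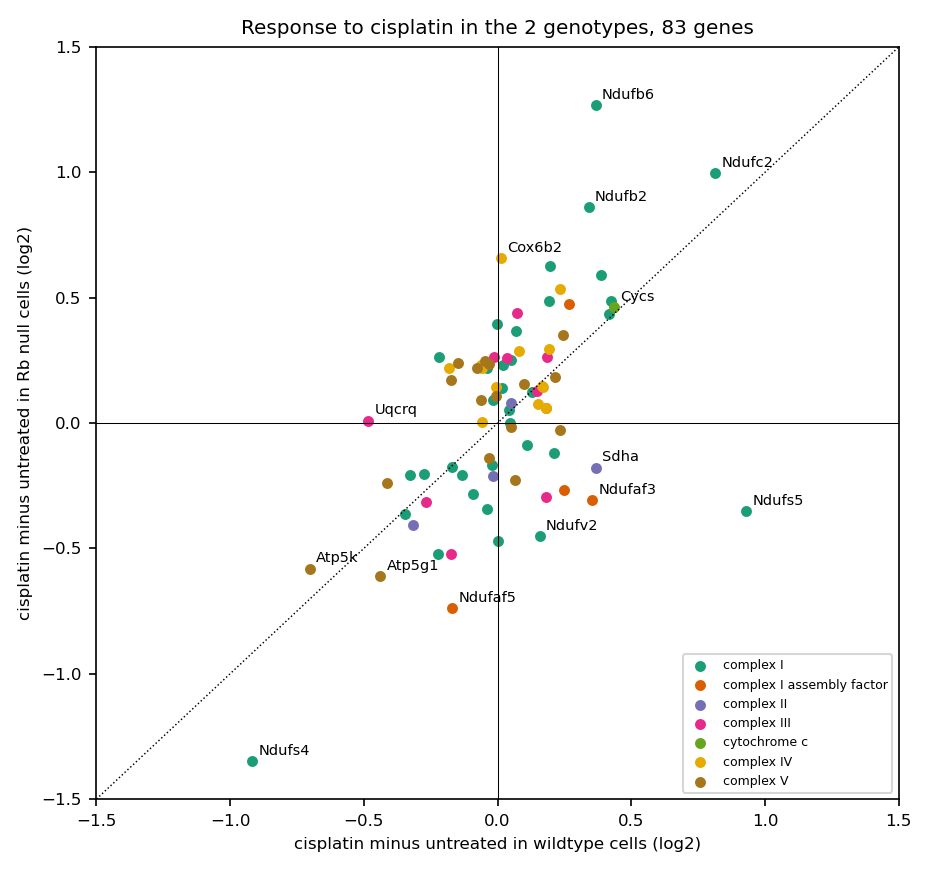
Log2 change with cisplatin in wildtype cells (x axis) and in Rb null cells (y axis) for 83 genes coloured by complex, with the line of equal response dotted. Ndufs4, Ndufc2 and Cycs lie in the quadrants of equal sign, Ndufs5 lies far to the right and below 0, and Ndufb6 lies well above the dotted line.

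Probe sets of the same gene did not always move alike, which limits the values of single genes. Among 42 genes with more than 1 tested probe set, the spread between them exceeded 1.5-fold in 6 for cisplatin in Rb null cells and in 5 for cisplatin in wildtype cells, and in 2 and 1 for genotype with and without cisplatin. The median spread was 0.261 and 0.219 for cisplatin in Rb null and wildtype cells. Of the genes with several probe sets that passed the test at any size, 14 of 24 passed it in the same direction on every probe set for cisplatin in Rb null cells, and 10 of 21 in wildtype cells. For genotype it was 13 of 19 with and 5 of 12 without cisplatin, and for the difference of responses 5 of 10. Opposite changes past the test occurred in Atp5k in both genotypes, in Cox5a in Rb null cells and in Ndufs8 in wildtype cells. For Atp5k in wildtype cells, 2 probe sets gave -0.70 and -0.85 and the third 0.23 (adjusted p = 0.00702). For Cox5a in Rb null cells they gave 0.060, 0.19 and, on a set whose suffix marks likely cross-hybridization, -0.67 (adjusted p = 0.0277). Uqcr10 and Ndufa12 were higher on their other probe sets than on the one counted: Uqcr10 gave 1.20 and 1.26 for cisplatin in Rb null cells, against 0.44, and Ndufa12 gave 0.68 and 1.21, against 0.43. Ndufa12 gave 0.99 and 1.499 in wildtype cells, against 0.42. Uqcr10 and Ndufa12 pass the 1.5-fold minimum only on the probe sets that were not counted. A further 7 probe sets carry several symbols, among them Ndufb4, Ndufa11 and Ndufs6 with near copies, so they name no single gene. The Ndufa11 probe set was higher by 0.57 with cisplatin in Rb null cells (adjusted p = 7.3e-06) and at -0.074 in wildtype cells (adjusted p = 0.417).

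**Figure D5:**
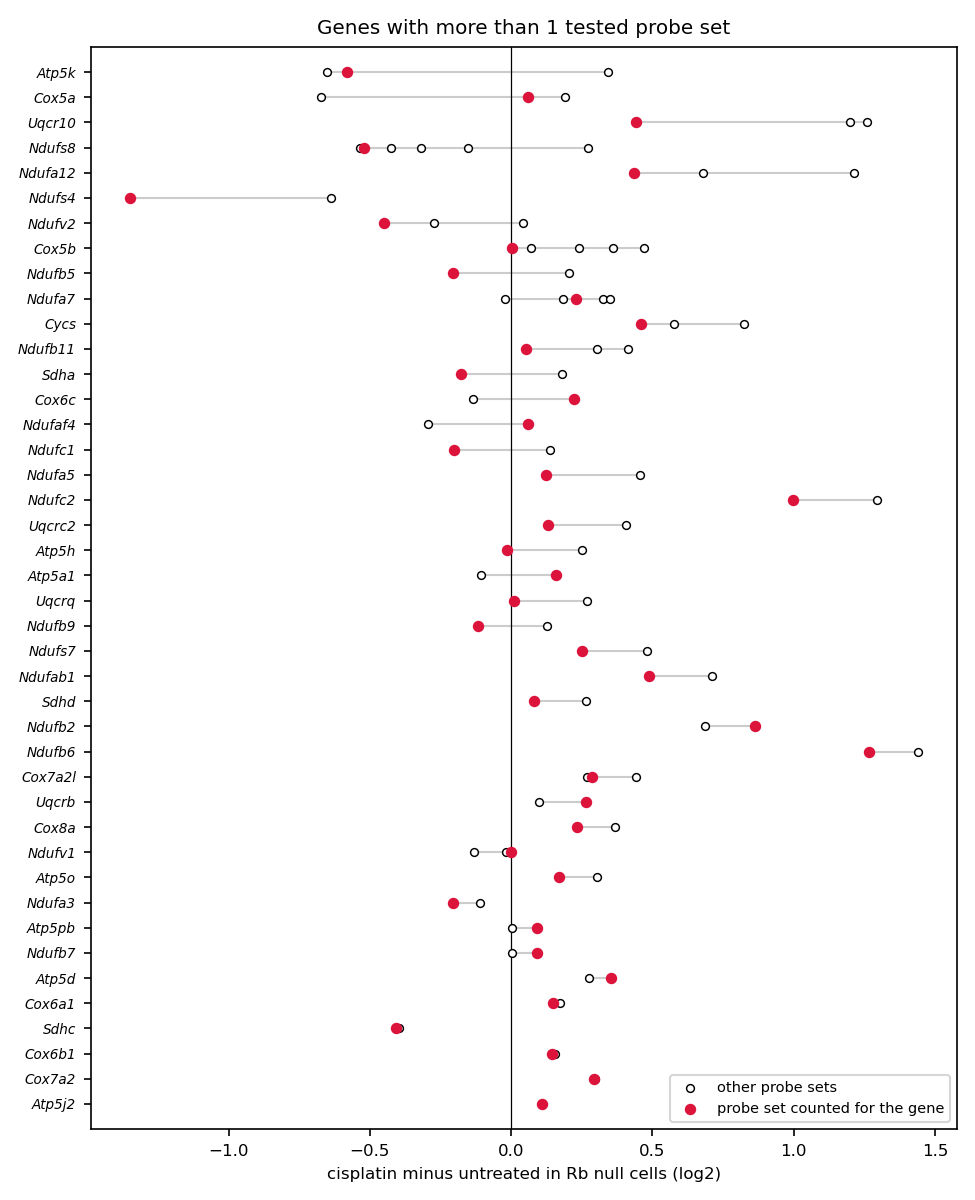
Log2 change with cisplatin in Rb null cells (x axis) on each tested probe set of 42 genes (rows), with the probe set counted for the gene in red and the others open. The probe sets of Ndufb6 and Ndufc2 all lie on the positive side, and those of Atp5k and Cox5a lie on both sides of 0.

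Of the 13 subunits encoded in mitochondrial DNA, mt-Nd5, a proton-pumping subunit of complex I, was the one annotated on the array. It averaged 6074 ± 126 in treated Rb null cells, 4326 ± 313 in treated wildtype cells, 5545 ± 702 in untreated Rb null cells and 7087 ± 931 in untreated wildtype cells (SD, n = 3 arrays each). With cisplatin it was at 0.14 (adjusted p = 0.22) in Rb null cells and fell by 0.71 in wildtype cells (adjusted p = 2.02e-05), and the responses differed by 0.84 ± 0.13 on the log2 scale (SE; adjusted p = 2.35e-04). Lists of other genes of the pathway were counted in the same way. Of 34 tested assembly factors of other names, 12 rose and 12 fell with cisplatin in Rb null cells (70.6%, against 65.6% of all genes, median -0.026), and 6 rose and 6 fell in wildtype cells (35.3%, against 56.6%, median -0.00088). Called were 10 and 4 in Rb null cells (41.2%, against 36.9%) and 2 and 3 in wildtype cells (14.7%, against 27.5%). Sco2, a copper chaperone of complex IV and a known p53 target, averaged 1146 ± 120.3 in treated against 169.8 ± 22.4 in untreated Rb null cells, 2.68 ± 0.12 on the log2 scale (SE; adjusted p = 1.54e-10), and 967 ± 97.3 against 349.6 ± 44.2 in wildtype cells, 1.44 ± 0.12 on the log2 scale (SE; adjusted p = 1.73e-07). It was lower in Rb null than in wildtype cells without cisplatin, at -0.998 (adjusted p = 1.96e-05), and the responses differed by 1.24 (adjusted p = 7.69e-05). Timmdc1, a complex I assembly factor, fell by 0.34 in Rb null cells (adjusted p = 0.00204) and fell by 1.53 in wildtype cells (adjusted p = 1.14e-09). Lrpprc, which stabilizes mitochondrial mRNAs, fell by 1.17 in Rb null cells (adjusted p = 3.57e-06) and fell by 0.58 in wildtype cells (adjusted p = 0.00277).

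Of 16 tested regulators of mitochondrial biogenesis, 8 rose and 3 fell with cisplatin in Rb null cells (68.8%, against 65.6% of all genes, median 0.26, against -0.017), and 10 rose and 2 fell in wildtype cells (75%, against 56.6%, median 0.38, against 0.057). Called were 5 and 0 in Rb null cells (31.2%, against 36.9%) and 2 and 0 in wildtype cells (12.5%, against 27.5%). Tfam, which packages and transcribes mitochondrial DNA, rose by 1.15 (adjusted p = 3.87e-09) in Rb null cells and 0.96 (adjusted p = 4.07e-08) in wildtype cells. With cisplatin it was higher in Rb null cells by 0.74 (adjusted p = 1.32e-06). Esrra, a nuclear receptor that acts on respiratory genes, rose by 1.42 (adjusted p = 5.95e-09) in Rb null cells and 0.99 (adjusted p = 4.37e-07) in wildtype cells. Of 19 tested genes of the citric acid cycle and pyruvate dehydrogenase, 5 rose and 11 fell in Rb null cells (84.2%, median -0.31), and 5 rose and 4 fell in wildtype cells (47.4%, median 0.14). Called were 2 and 4 in Rb null cells (31.6%) and 2 and 1 in wildtype cells (15.8%). Suclg2, a subunit of succinyl-CoA ligase, fell by 2.51 in Rb null cells (adjusted p = 9.52e-09) and fell by 1.93 in wildtype cells (adjusted p = 2.35e-07). Idh2, the mitochondrial NADP-dependent isocitrate dehydrogenase, was higher in Rb null than in wildtype cells without cisplatin by 1.45 (adjusted p = 1.13e-08) and fell with cisplatin in Rb null cells by 1.54 (adjusted p = 1.47e-09). Of 18 tested carriers, porins and enzymes that feed electrons to ubiquinone, 2 rose and 8 fell in Rb null cells (55.6%, median -0.18), and 6 rose and 6 fell in wildtype cells (66.7%, median 0.028). Called were 1 and 6 in Rb null cells (38.9%) and 0 and 2 in wildtype cells (11.1%). The shares over all genes are those given for the assembly factors. Gpd2, the mitochondrial glycerol-3-phosphate dehydrogenase, fell by 1.11 in Rb null cells (adjusted p = 3.25e-09) and rose by 0.18 (adjusted p = 0.0336) in wildtype cells, and the responses differed by -1.30 ± 0.097 on the log2 scale (SE; adjusted p = 2.26e-07). Sqor, the sulfide:quinone oxidoreductase, fell in Rb null cells by 0.70 (adjusted p = 8.64e-06) and rose in wildtype cells by 0.34 (adjusted p = 0.0049).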

How the data were processed

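RNA of 4 groups was measured on 3 arrays each. The deposited values are MAS5 signal intensity per probe set on a linear scale, scaled by the authors to the same trimmed mean on each array. MAS5 is named per the submitters' processing notes, and its version is not given in the sources used here. From these values log2(intensity + 10.4) was computed, where 10.4 is the 10th percentile. The 64 control probe sets and the 40% with the lowest mean were left out. The remaining 13575 of 22690 probe sets were fitted with limma 3.58.1 in R 4.3.3, with 1 mean per group, a variance trend, 8 residual and 6.09 prior degrees of freedom, and Benjamini-Hochberg adjustment. A fold change on this scale understates that of weak probe sets. The number of arrays limits the precision.

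Each of 7945 genes was counted through 1 probe set, that without a cross-hybridizing suffix first and then that with the highest mean. Genes called in a contrast needed an adjusted p under 0.05 and a 1.5-fold change. The members, the pathway lists and the marker lists were chosen with earlier results of these data known. Array values are given for the 3 largest rises and falls at an adjusted p under 0.05 in each contrast, for fixed core subunits and for tissue isoforms. Genes of the pathway lists were named from those called with the largest changes. The fit was tested on simulated data with known changes. Alternatives covered the pseudocount, the filter, the scaling, the probe sets counted, the fold minimum, the variance trend, the samples fitted, a replicate block and each array left out. Same-numbered arrays did not deviate together across genotypes: correlations of their deviations ran from -0.186 to 0.109, so the numbers were not taken to pair samples.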

Additional observations from a re-analysis of the deposited data

Results flagged for a closer look

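For 27 of the 83 respiratory chain genes the log2 change with cisplatin differed between Rb null and wildtype cells at an adjusted p under 0.05 of limma's interaction contrast (32.5%, against 39.3% of all genes tested). Values are the Rb null response minus the wildtype response, followed by each response. The untreated wildtype group, which stands apart in sex-linked transcripts, enters every one of these differences, and its part in them was not tested.

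In 12 genes the response was more negative in Rb null cells. They were Ndufs5 (-1.28; -0.35 in Rb null and 0.93 in wildtype cells), Ndufaf3 (-0.66; -0.31 in Rb null and 0.35 in wildtype cells), Ndufv2 (-0.61; -0.45 in Rb null and 0.16 in wildtype cells), Ndufaf5 (-0.57; -0.74 in Rb null and -0.17 in wildtype cells), Sdha (-0.55; -0.18 in Rb null and 0.37 in wildtype cells) and Ndufaf7 (-0.52; -0.27 in Rb null and 0.25 in wildtype cells). Smaller differences were found in Cyc1 (-0.48; -0.29 in Rb null and 0.18 in wildtype cells), Ndufs1 (-0.47; -0.47 in Rb null and 0.0032 in wildtype cells), Ndufs4 (-0.43; -1.35 in Rb null and -0.92 in wildtype cells), Ndufb9 (-0.33; -0.12 in Rb null and 0.21 in wildtype cells), Atp5c1 (-0.29; -0.23 in Rb null and 0.066 in wildtype cells) and Atp5j (-0.26; -0.028 in Rb null and 0.23 in wildtype cells).

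In 15 genes it was more positive in Rb null cells. They were led by Ndufb6 (0.90; 1.27 in Rb null and 0.37 in wildtype cells), Cox6b2 (0.65; 0.66 in Rb null and 0.011 in wildtype cells), Ndufb2 (0.52; 0.86 in Rb null and 0.34 in wildtype cells), Uqcrq (0.49; 0.0093 in Rb null and -0.48 in wildtype cells), Ndufa6 (0.48; 0.26 in Rb null and -0.22 in wildtype cells) and Cox6c (0.40; 0.22 in Rb null and -0.18 in wildtype cells). These were followed by Ndufa4 (0.40; 0.39 in Rb null and -0.0032 in wildtype cells), Uqcr10 (0.37; 0.44 in Rb null and 0.074 in wildtype cells), Atp5o (0.34; 0.17 in Rb null and -0.17 in wildtype cells), Cox4i1 (0.30; 0.54 in Rb null and 0.23 in wildtype cells) and Ndufa2 (0.30; 0.37 in Rb null and 0.068 in wildtype cells). The smallest were Ndufa8 (0.29; 0.49 in Rb null and 0.19 in wildtype cells), Atp5l (0.29; 0.25 in Rb null and -0.048 in wildtype cells), Atp5b (0.29; 0.22 in Rb null and -0.076 in wildtype cells) and Ndufa1 (0.26; 0.22 in Rb null and -0.038 in wildtype cells). The list holds 3 of 5 complex I assembly factors (60%, against 39.3% of all genes), all on the negative side. It holds 3 of 13 complex IV genes (23.1%, against the same 39.3%), all on the positive side. Of all genes, 24.1% were on the negative and 15.2% on the positive side. With centred arrays 1 assembly factor was on the positive side and 2 on the negative, and 6 complex IV genes were on the positive side. With quantile normalization 1 assembly factor was on the negative side, and 2 complex IV genes were on the positive and 1 on the negative side. Other probe sets of Sdha, Ndufs4, Uqcrq and Atp5o did not pass the test for this difference, and 1 of the 2 other sets of Ndufv2 did not. With quantile normalization 10 genes passed in each direction, and with centred arrays 25 on the positive and 6 on the negative side. Shares over all genes under these 2 scalings were not counted.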

How the results depend on the processing

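On the probe set counted, the 26 called gene and contrast pairs kept their direction under the alternatives run gene by gene (pseudocount, filter, scaling, trend, samples fitted, block and arrays left out), and 16 kept their call in all of these, while 10 lost it in at least 1. Other probe sets are outside that statement: Atp5k for cisplatin in wildtype had sets from -0.85 to 0.23, and Ndufs8 for genotype with cisplatin from -0.68 to 0.15. Counts below are genes called higher, then lower. With no fold minimum they were 6 and 15 for genotype without cisplatin, 19 and 21 for genotype with cisplatin, 22 and 12 for cisplatin in wildtype, 32 and 23 for cisplatin in Rb null, and 15 and 12 for the difference of responses. With a 2-fold minimum they were 1 and 0, 1 and 1, 0 and 0, 1 and 1, and 0 and 1 in the same order. By limma on any probe set of a gene, 10 and 5 were called for cisplatin in Rb null, and 4 were higher for cisplatin in wildtype, for genotype with cisplatin and for the difference of responses. With no filter 4 were higher for cisplatin in wildtype, Cox7a1 and Cox7c being added. The lower genes for genotype with cisplatin numbered 2 with the lowest 60% left out, with a pseudocount at the 25th percentile, with quantile normalization and with centred arrays. Centring the arrays on their median gave 5 and 1 for the difference of responses, and medians of 0.182 for it, 0.191 for cisplatin in Rb null and 0.065 for genotype with cisplatin. The cause of these shifts was not tested, and shares over all genes were not counted under the other scalings.

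Leaving out 1 array at a time gave, for cisplatin in Rb null, a median of 0.0661 to 0.127, with 4 to 6 genes higher and 2 to 6 lower (6 without array a of treated Rb null cells). For cisplatin in wildtype the median was 0.00968 to 0.0444, with 2 to 2 higher and 1 to 2 lower (1 without array 2 or 3 of untreated or array a or b of treated wildtype cells). For the difference of responses it was 0.0414 to 0.0757, with 1 to 3 higher and 2 to 5 lower. There 1 was higher without array 1 of untreated Rb null or wildtype cells or array b of treated Rb null cells, and 5 were lower without array 1 of untreated wildtype, array b of treated Rb null or array a of treated wildtype cells. For genotype with cisplatin it was -0.0331 to -0.0041, with 2 to 2 higher and 2 to 5 lower (2 without array c of treated Rb null or array a of treated wildtype cells). For genotype without cisplatin it was -0.088 to -0.0603, with 1 to 1 higher and lower. With a replicate block, which the array numbers do not justify, the counts were 2 and 4 for genotype with cisplatin, 1 and 1 without it, and 2 and 3 for the difference of responses. A fit without the untreated wildtype group, chosen after seeing the data, left the counts for genotype with cisplatin and for cisplatin in Rb null as they were. The log2 differences could not change in that fit, because each group has its own mean. With 3 arrays of 1 RNA sample per group, as the series text has it, the spread between cultures was not measured.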
